A study of Mus musculus with 8 samples.

Results

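The CDK inhibitor genes of the mouse encode small proteins that hold back the cyclin-dependent kinases, the engines of the cell cycle. The group comprised Cdkn1a, Cdkn1b, Cdkn1c, Cdkn2a, Cdkn2b, Cdkn2c, Cdkn2d and Cdkn3, 8 genes chosen by name. A probe was taken as belonging to the group when its RefSeq accession belonged to one of the 8 symbols. Of the 32970 genes and unnamed transcripts on the array, 7 were such members, read by 8 probes. Cdkn3 had no matched probe and was not analysed here. The 7 genes each had a probe well above background on all 8 arrays, and the eighth probe, the fainter of 2 for Cdkn1b, was above background on 0 of 8.

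Messenger RNA was measured on 8 one-colour arrays, 1 per culture of haematopoietic stem and progenitor cells (HSPCs). Marrow was taken from 4 Runx1 Δ/Δ mice whose strain was a mix of C57Bl/6 and 129SvJ, so the controls carried the Runx1 deletion too; the age of the mice and what drove the deletion are not stated in the labels. Bone marrow depleted of lineage-positive cells was kept for 2 days in a serum-free medium. The cytokines were SCF at 50 ng/ml, IL-3 at 10 ng/ml, and both Flt3 ligand and IL-11 at 100 ng/ml. One culture of each mouse then received a retrovirus with a control shRNA and the other a retrovirus with a shRNA against Pcgf1, and puromycin at 5 µg/ml, from 24 h on, was applied for 36 h. Each group held 4 arrays paired by mouse number. The labels do not say whether more than a single shRNA sequence was used, so the effect of reducing Pcgf1 and that of the shRNA itself cannot be told apart.

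The CIP/KIP proteins p21 (Cdkn1a), p27 (Cdkn1b) and p57 (Cdkn1c) bind complexes of cyclins with CDK2 and related kinases. The INK4 proteins p16Ink4a (Cdkn2a), p15Ink4b (Cdkn2b), p18Ink4c (Cdkn2c) and p19Ink4d (Cdkn2d) bind CDK4 and CDK6 and keep them from D-type cyclins, so that RB stays active. Cdkn2a has a separate start for Arf, a protein that shields p53 from Mdm2. Cdkn2a and Cdkn2b lie side by side and are textbook targets of Polycomb repression; in blood stem cells loss of the Polycomb protein Bmi1 is known to raise Cdkn2a. Pcgf1 belongs to PRC1.1, a Polycomb complex brought to unmethylated CpG by its subunit Kdm2b.

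Because Kdm2b binds CG dinucleotides, the 250 bases before 4 starts of Cdkn2a, Cdkn2b and Cdkn2d are shown. Other members with a window, Cdkn1b among them, are given by CG count only. The windows shown are read 5′ to 3′ on the gene's strand, with every CG in capitals. They are RefSeq sequences of GRCm38.p6, all from the minus strand. The Arf start of Cdkn2a lies at chr4:89294620-89294869, its p16Ink4a start at chr4:89282193-89282442, Cdkn2b at chr4:89311033-89311282 and Cdkn2d at chr9:21291210-21291459.
Cdkn2a, Arf start: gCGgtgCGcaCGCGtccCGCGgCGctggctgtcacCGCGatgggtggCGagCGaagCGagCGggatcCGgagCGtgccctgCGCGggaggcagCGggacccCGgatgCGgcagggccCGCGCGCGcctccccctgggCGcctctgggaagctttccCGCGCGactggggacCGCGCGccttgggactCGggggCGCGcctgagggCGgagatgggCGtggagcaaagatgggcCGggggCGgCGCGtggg
Cdkn2a, p16Ink4a start: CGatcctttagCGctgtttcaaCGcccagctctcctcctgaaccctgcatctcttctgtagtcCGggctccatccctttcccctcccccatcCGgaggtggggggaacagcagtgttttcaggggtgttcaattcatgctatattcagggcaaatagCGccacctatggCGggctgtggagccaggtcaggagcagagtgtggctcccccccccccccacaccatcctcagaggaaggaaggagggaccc
Cdkn2b: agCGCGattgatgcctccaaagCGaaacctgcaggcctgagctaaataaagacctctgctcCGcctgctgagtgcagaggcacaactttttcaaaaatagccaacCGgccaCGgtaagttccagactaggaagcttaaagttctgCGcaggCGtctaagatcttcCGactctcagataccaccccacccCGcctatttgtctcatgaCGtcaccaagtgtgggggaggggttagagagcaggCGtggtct
Cdkn2d: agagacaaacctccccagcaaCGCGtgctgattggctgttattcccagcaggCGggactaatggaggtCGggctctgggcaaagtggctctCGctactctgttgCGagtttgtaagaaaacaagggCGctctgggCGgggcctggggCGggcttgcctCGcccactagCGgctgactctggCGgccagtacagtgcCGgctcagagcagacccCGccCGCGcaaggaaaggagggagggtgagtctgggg

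The 4 windows differed in CG content. The Arf window held 40 CG, a number reached by 1.31% of 32851 RefSeq promoter windows of the same length, of which the median was 6. The p16Ink4a window held 7 (46.3% of windows hold as many), Cdkn2b 12 (33.5%) and Cdkn2d 16 (25.4%). Among the other members the Cdkn1b window held 28, those of Cdkn2c 29 and 6, those of Cdkn1a 2 and 19, and that of Cdkn3 18. The E2F-type motifs TTTCCCGC and TTTGGCGC, searched on both strands and each containing a CG, occurred once in the Arf window and in none of the other 9 member windows, against 1.3% of all windows with at least one. Such matches describe letters only, and no binding or methylation was measured here.

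The comparison of the 2 shRNAs addresses how transcripts respond to less Pcgf1 where Runx1 is deleted. All values are log2 signals, scaled so that the 75th percentile of each array is 0, and levels of different probes are not compared. Pcgf1 itself read between −0.45 and −0.01 on the control arrays and between −1.74 and −1.35 with its shRNA, which left 39.0% (limma, adjusted p 0.0197). The adjusted p was 0.113, 0.352 and 0.0904 without mice 1, 2 and 3, with log2 changes of −1.34, −1.34 and −1.38, against −1.36 with all 4 mice. On each array 54.8% to 62.0% of spots were well above background, and the lowest such signals lay between −5.94 and −5.22. The arrays filled 2 slides, each with both groups (mice 1 and 2, mice 3 and 4). Nothing in the labels says that the 2 cultures of a mouse were repeated, so the p-values rest on 4 mice with 1 culture of each kind. Without a block they cover the spread between mice. With mouse as a block they cover the spread of the 4 within-mouse differences.

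The INK4 transcripts and Cdkn1b of the CIP/KIP family had lower means with the Pcgf1 shRNA, Cdkn2c by 0.14 only and in 3 of 4 mice. The mean changes of Cdkn1a and Cdkn1c were 0.01, with a wide 95% interval for Cdkn1c (−0.59 to 0.61). Only Cdkn2d passed an adjusted p of 0.05, and only with mouse as a block. Cdkn2d was 1.33-fold lower, Cdkn2a 1.34-fold, Cdkn2b 1.38-fold and Cdkn1b 1.24-fold, each in 4 of 4 mice. Over all genes 16.2% were lower in 4 of 4 mice, against 4 of these 7. The change was below 0 in 5 of 7 members and in 49.5% of all genes. Without a block 0 of 7 passed an adjusted p of 0.05 in limma, where 0.763% of all genes passed (0.168% lower and 0.595% higher). An unadjusted p under 0.05 was reached by 2 of 7, against 12.2% of all genes. With mouse as a block 1 of 7 passed, where 5.32% of all genes passed, and it was lower, as were 2.42% of all genes. An unadjusted p under 0.05 was then reached by 4 of 7, all lower, against 23.5% of all genes in either direction and 12.6% in the lower one. The groups did not overlap in 2 of 7 members, both lower, and in 7.17% of all genes in either direction. The median log2 change of the 7 was −0.31, against 0.0022 over the 17301 genes tested. It was −0.22, −0.24, −0.47 and −0.19 in mice 1 to 4. No Cdkn2a rise of the kind known for loss of Bmi1 was measured. The unadjusted 95% interval of Cdkn2a ran from −0.92 to 0.07 without a block and from −0.65 to −0.20 with mouse as a block. The 2 settings are unlike, since here another Polycomb gene was reduced, with 39.0% of its mRNA left, in cultures with Runx1 deleted.

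**Figure D1:**
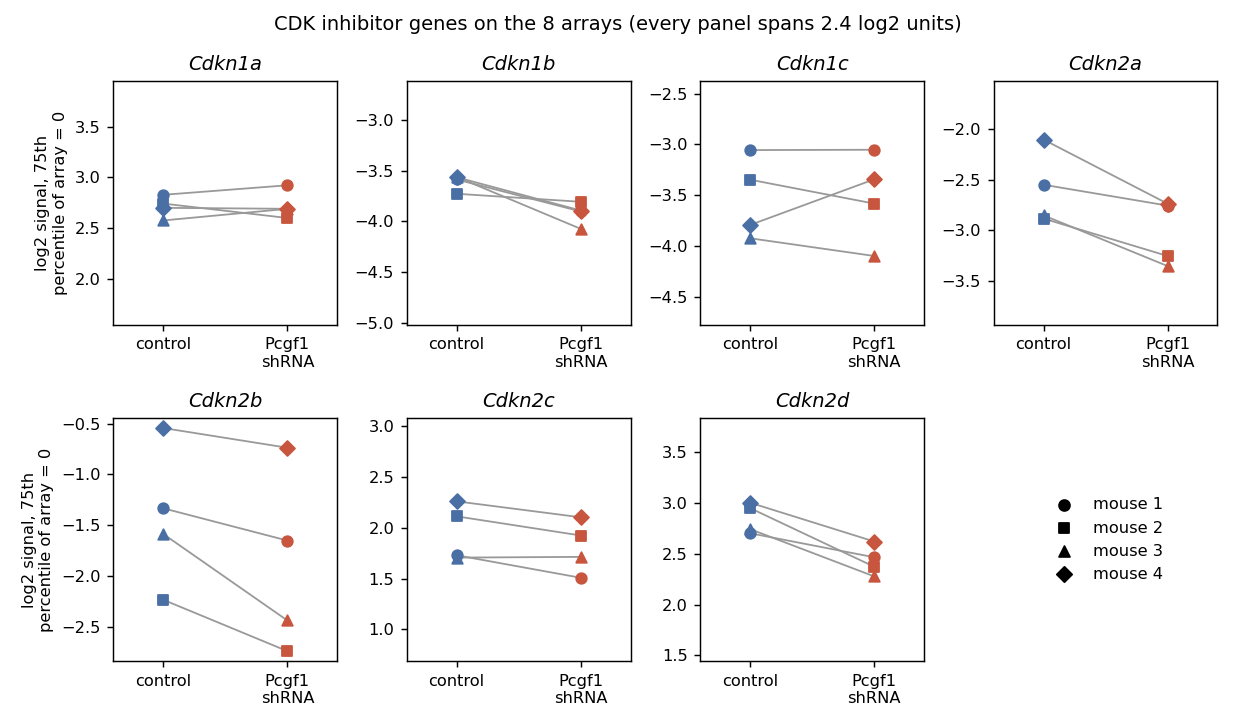
Log2 signal of the 7 measured CDK inhibitor genes (vertical axis, 75th percentile of each array = 0) on the control shRNA and Pcgf1 shRNA arrays, with a line joining the 2 cultures of a mouse and a symbol for each mouse. Cdkn1b, Cdkn2a, Cdkn2b and Cdkn2d slope down in 4 of 4 mice, while Cdkn1a and Cdkn1c go down in 2 and up in 2.

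Cdkn2d, whose protein p19Ink4d restrains CDK4 and CDK6, had the smallest p of the members in both fits. Its control values were 2.70, 2.95, 2.74 and 3.00 in mice 1 to 4, and those with the Pcgf1 shRNA 2.47, 2.37, 2.28 and 2.62. Every control array was above every array with the Pcgf1 shRNA; over all genes 2.92% were separated in this way with the lower values on the Pcgf1 shRNA side. The means were 2.85 ± 0.15 (SD, n = 4) and 2.43 ± 0.15 (n = 4), a log2 change of −0.42 (SE 0.11) with a limma adjusted p of 0.159. With mouse as a block the SE was 0.08 and the adjusted p 0.0477, so Cdkn2d fell by that test. This call was lost when any one mouse was left out (adjusted p 0.0701, 0.229, 0.146 and 0.0921 without mice 1, 2, 3 and 4). The change was −0.41 on the first slide and −0.42 on the second.

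Cdkn2a, the gene of p16Ink4a and Arf, was dimmer. Its probe carries the accession of the Arf transcript, and the labels do not say if it also reads the exons shared with p16Ink4a. The control arrays read −2.55, −2.88, −2.85 and −2.11 in mice 1 to 4, and the arrays with the Pcgf1 shRNA −2.76, −3.25, −3.35 and −2.74. Mouse 4 was highest in the controls, each mouse was lower with the Pcgf1 shRNA, and the groups overlapped. The means were −2.60 ± 0.36 (SD, n = 4) and −3.03 ± 0.32 (n = 4), and the log2 change was −0.43 (SE 0.22, limma adjusted p 0.485). The 4 mice spread more widely than the pairs. The within-mouse differences of −0.21, −0.37, −0.50 and −0.63 had an SD of 0.18, and with mouse as a block the adjusted p was 0.0554. The change was −0.29 on the first slide and −0.57 on the second.

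Cdkn2b, the neighbouring gene of p15Ink4b, an inhibitor induced by TGF-beta, varied most among the mice. It read −1.33, −2.23, −1.59 and −0.54 in the controls and −1.65, −2.74, −2.44 and −0.74 with the Pcgf1 shRNA. Mouse 4 was highest and mouse 2 lowest in both groups, and the groups overlapped broadly. The log2 change was −0.47 (SE 0.49, limma adjusted p 0.752), and −0.47 with an SE of 0.12 and an adjusted p of 0.0845 with mouse as a block. The differences were −0.32, −0.51, −0.85 and −0.19, with mean values of −0.41 and −0.52 on the 2 slides. Cdkn2a and Cdkn2b followed each other over the arrays, with r of 0.895 once each group's mean was removed (8 arrays of 4 mice that share culture, depth and slide), the highest r among the 21 pairs of members. Mtap, the gene of a methionine salvage enzyme next to Cdkn2a on the other side, stood 0.37 higher (limma adjusted p 0.397) and was higher in 4 of 4 mice. Dmrta1, the neighbour of Cdkn2b, was not above background on any array.

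Cdkn2c, whose protein limits the division of lymphoid and stem cells, differed least within the INK4 family. Its control values were 1.73, 2.11, 1.71 and 2.26 and those with the Pcgf1 shRNA 1.51, 1.93, 1.71 and 2.10. It was lower in 3 of 4 mice and differed by 0.0071 in mouse 3. The log2 change was −0.14 (95% interval −0.54 to 0.26, limma adjusted p 0.801). In the blocked fit it was −0.32 to 0.04. The within-mouse differences were −0.22, −0.19, 0.0071 and −0.16 for Cdkn2c, beside −0.24, −0.58, −0.47 and −0.38 for Cdkn2d. The difference between the 2 genes was not tested.

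**Figure D2:**
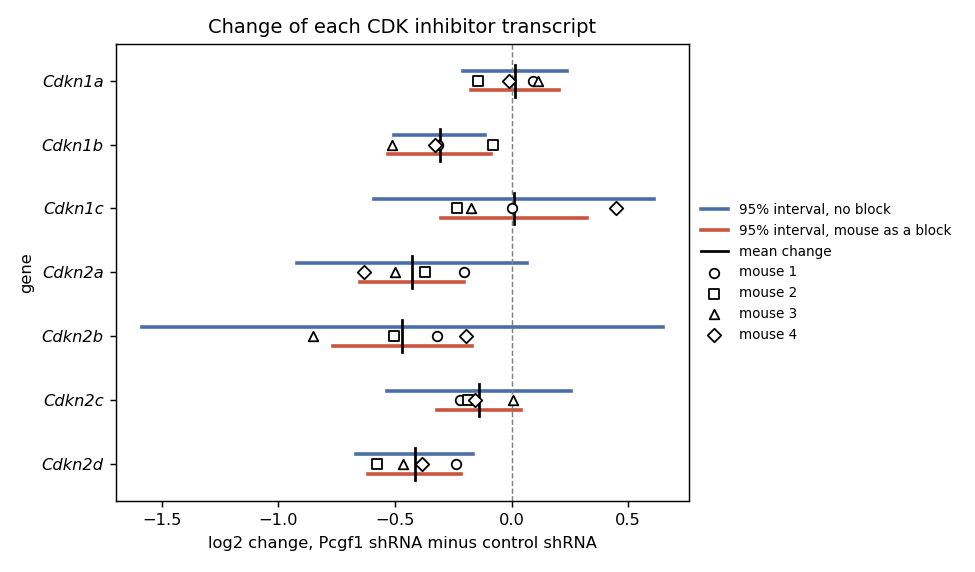
Log2 change of each gene (horizontal axis, Pcgf1 shRNA minus control shRNA) with the mean as a black tick, the 95% intervals of the limma fit without a block (blue) and with mouse as a block (red), and the 4 within-mouse differences as open symbols. For Cdkn2b the interval shrinks from −1.58 to 0.65 without the block to −0.76 to −0.17 with it, while that of Cdkn1b is of similar width in both.

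Among the CIP/KIP genes, Cdkn1b was the one with lower values. Its protein p27 holds quiescent progenitors out of the cycle. The control arrays read −3.59, −3.73, −3.56 and −3.57 and those with the Pcgf1 shRNA −3.90, −3.81, −4.07 and −3.89. The groups did not overlap, although mouse 2 differed by 0.08 only. The log2 change was −0.31 (SE 0.09) with a limma adjusted p of 0.185, and 0.110 with mouse as a block. The changes on the 2 slides were −0.20 and −0.42. The probe is dim, with a raw median signal of 65.4 to 87.6 on the arrays over a local background of 23.3 to 25.8, and with normexp background correction the change was −0.20. An exact two-sided permutation test of 4 against 4 arrays gave Cdkn1b and Cdkn2d the smallest p it allows, 0.0286, and Cdkn2a 0.171 (7 genes tested, unadjusted). The exact sign-change test of 4 pairs cannot go below 0.125.

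Cdkn1a, the p53 target that encodes p21, was bright and steady. It read 2.83, 2.74, 2.58 and 2.70 in the controls and 2.92, 2.60, 2.69 and 2.69 with the Pcgf1 shRNA, higher in 2 mice and lower in 2. The log2 change was 0.01 with a 95% interval from −0.21 to 0.24 (limma adjusted p 0.972). The sign of a value this small changed without mouse 1 (−0.01) and without mouse 3 (−0.02). Cdkn1c, the imprinted gene of p57, which keeps stem cells quiescent, read −3.06, −3.35, −3.93 and −3.79 in the controls and −3.05, −3.58, −4.10 and −3.34 with the Pcgf1 shRNA. It was 0.45 higher in mouse 4 and between −0.24 and 0.0032 in the other mice. Its mean change was 0.01 (95% interval −0.59 to 0.61, limma adjusted p 0.993), but −0.14 without mouse 4 and −0.05 with normexp. In the blocked fit the interval ran from −0.30 to 0.32.

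The array carries 10 spots each of the Cdkn1a, Cdkn1b and Cdkn2a probes, so the measuring error within an array could be set against the spread between mice. For Cdkn2a the 10 spots of an array had an SD of 0.04 to 0.13, against 0.36 and 0.32 between mice in the control and Pcgf1 shRNA groups. The spot error of a within-mouse difference was at most 0.05, below each of the 4 differences. In 3 of 4 mice every Cdkn2a spot with the Pcgf1 shRNA was lower than every control spot. For Cdkn1b the SD of single spots, 0.08 to 0.16, was as large as that between mice of means of 10 spots (0.08 and 0.11). The spot error of a within-mouse difference was smaller, 0.04 to 0.07, against differences from −0.08 in mouse 2 to −0.51 in mouse 3. Its spots separated in 2 of 4 mice. For Cdkn1a the spot SD was 0.02 to 0.06. These spots are technical repeats of 1 RNA and do not replace mice.

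**Figure D3:**
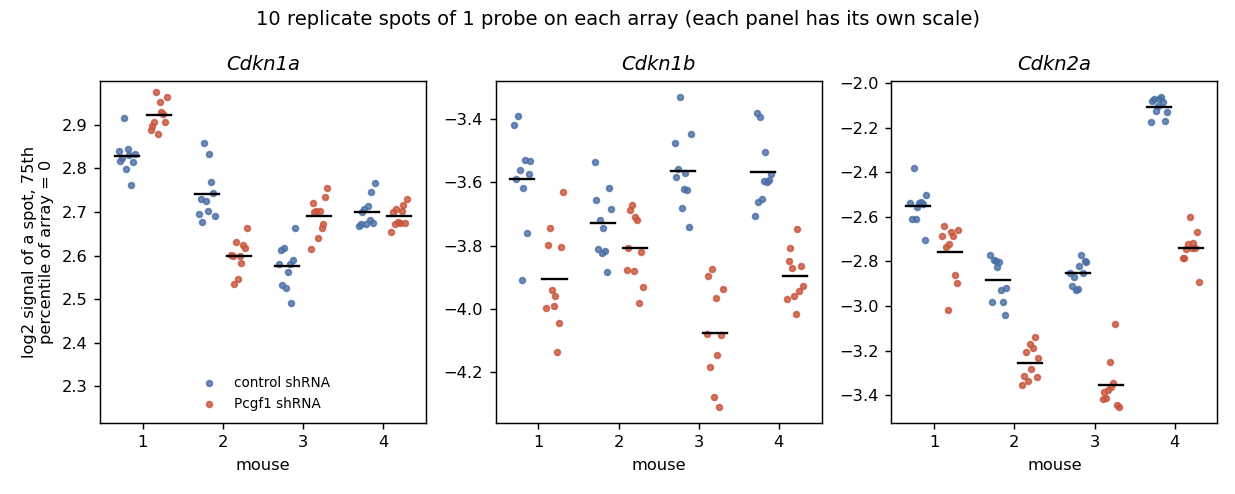
Log2 signal of the 10 spots of 1 probe on each array (vertical axis, own scale per panel) by mouse, with control shRNA in blue, Pcgf1 shRNA in red and the array mean as a black line. The Cdkn2a spots of the 2 cultures separate in mice 2, 3 and 4, whereas those of Cdkn1b overlap in mice 1 and 2.

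The direction of these differences also rests on the scaling between arrays, since the 75th percentile was higher on the Pcgf1 shRNA array in 3 of 4 mice. Before scaling, the processed signal was lower with the Pcgf1 shRNA in 4 of 4 mice for Cdkn2d, in 3 of 4 for Cdkn1b, Cdkn2a and Cdkn2b, and in 1 of 4 for Cdkn2c. After scaling to the 75th percentile or the median, or by quantiles, the changes of Cdkn1b, all the INK4 genes and the median of the members were below 0.

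Each member was matched to the 2 named genes whose signals followed it most closely over the 8 arrays, out of 11715. Cdkn2d was followed by Bcas3 (r 0.987) and Tmem109 (0.981), and Cdkn2c by Tfdp2 (0.977), which encodes a dimerization partner of E2F, and Nat2 (0.965). Cdkn2b was followed by Ccnd3 (0.967), the cyclin D3 gene, and Capn3 (0.962), and Cdkn2a by Pacsin2 (0.949) and Rsph3a (0.945). In the CIP/KIP family the closest were Copz2 (0.963) and Hook2 (0.899) for Cdkn1a, Mapkapk5 (0.956) and Gpalpp1 (0.938) for Cdkn1b, and Crtc2 (0.926) and Trpm4 (0.910) for Cdkn1c. These are the highest of many values over 8 arrays that share mice, so they describe likeness in these arrays only.

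The kinases and cyclins that the inhibitors act on showed 1 rise. Ccnd2, the gene of cyclin D2, a partner of CDK4 and CDK6, rose from 3.46 ± 0.13 to 3.95 ± 0.19 (SD, n = 4 each), a log2 change of 0.49 with a limma adjusted p of 0.0301 with mouse as a block (0.120 without), in 4 of 4 mice. The other 9 of the 10 measured genes did not pass either way, and their values lay between −0.24 (Ccne2) and 0.23 (Cdk4). The median of the list was 0.02. Of the 11 RB and E2F genes 0 passed in limma, with E2f2 at −0.71 (adjusted p 0.273), E2f7 at 0.32 and Rb1 at −0.26, and a median of 0.07. Of the 21 measured genes of DNA replication and mitosis 0 passed. Their values lay between −0.14 (Ccnb2) and 0.12 (Foxm1), with Aurkb at 0.11, around a median of 0.0022.

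Genes that control the inhibitors were counted in the same way. Of 17 measured regulators of the Ink4 and Arf genes 0 passed in limma, with Kdm2b at 0.33 (adjusted p 0.124), Rnf2, an E3 ligase of Polycomb, at 0.34 (0.127) and Cbx8, a chromatin reader, at 0.57 (0.282), and a median of 0.05. Cbx8 was above background on 3 control arrays and 4 Pcgf1 shRNA arrays, so it passed the filter only through the group where it was higher. Its control mean of −5.30 lay near the lowest signals above background, so the size of its change is not well measured. In the p53 list of 13 measured genes Pmaip1, which encodes the cell death protein Noxa, rose by 0.40 in the blocked fit (adjusted p 0.0471, against 0.272 with no block), and the median was −0.08. Of 14 FOXO, SMAD and related factors Cebpa, a granulocyte factor that binds CDK2 and CDK4, rose by 0.70 (adjusted p 0.0212 with mouse as a block, 0.199 without). Klf4, an activator of Cdkn1a, fell by 1.26 (0.0391 with the block, 0.210 without), with a list median of 0.04. Of the 10 measured genes of ubiquitin ligases for p21, p27 and p57 0 passed, with Skp1 at 0.21, Dtl at −0.13 and Rnf123 at −0.17, and a median of 0.03. With mouse as a block 2.91% of all genes rose, against 1 of 10, 0 of 11, 0 of 21, 0 of 17, 1 of 13, 1 of 14 and 0 of 10 here.

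**Figure D4:**
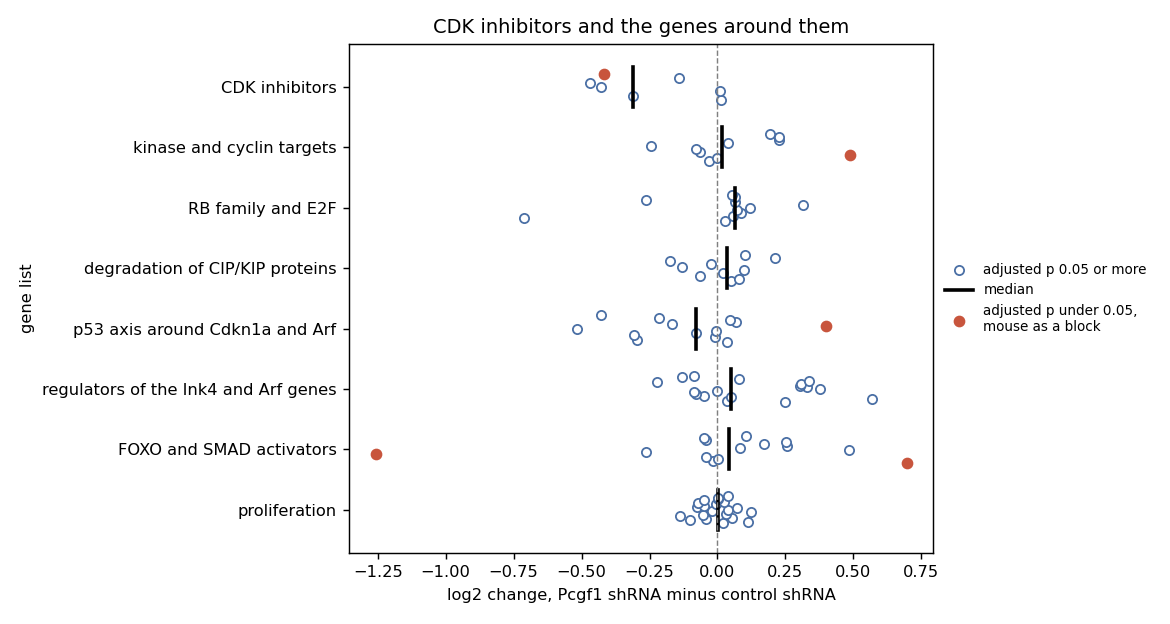
Log2 change (horizontal axis, Pcgf1 shRNA minus control shRNA) of every measured gene in 8 lists, with list medians as black bars and genes past an adjusted p of 0.05 with mouse as a block as red points. Among these 8 lists the CDK inhibitors have the lowest median (−0.31), and the proliferation genes all lie between −0.14 and 0.12. Marker lists are not drawn. Those of neutrophils (−1.79), erythroid cells (−0.75) and monocytes (−0.50) have lower medians, and the other marker lists do not. The neutrophil and monocyte medians include genes that passed the filter only through the controls.

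Markers of maturing cells moved with the groups. The summed signal of the 10 measured neutrophil maturation markers, in units of the 75th percentile, was 84.9 to 233 in the controls and 11.7 to 44.7 with the Pcgf1 shRNA. Without a block 3 of the 10 fell in limma, among them Ngp (−3.44) and Fpr2 (−1.79), where 0.168% of all genes fell. With mouse as a block 8 fell and 1 rose, Cxcr2, a chemokine receptor gene (0.54, adjusted p 0.0194), and Mmp9 was not above background on any array. Over all genes 2.42% fell and 2.91% rose with the block, the shares to set beside every blocked count of markers here. Ngp, counted among the 3 and the 8, and Ltf, among the 8, were above background on 4 control arrays and 0 Pcgf1 shRNA arrays. These 2 genes passed the filter only through the controls. The size of their fall is therefore not measured, and their part in these counts is no support. The summed signal of the 9 progenitor markers was 22.9 to 25.4 and 33.6 to 41.3, and Sox4 (0.86) and Cd34 (0.94) rose. With the block Meis1 (0.79) rose too and Ly6a (−0.68) fell. The 6 monocyte markers summed to 37.5 to 75.2 and 34.4 to 57.0, lower in 4 of 4 mice, with Mpeg1 at −0.77 and, passing with the block, Ccr2 at −1.21. Of these 6, Cx3cr1 was above background on 4 control arrays and 2 Pcgf1 shRNA arrays, so it passed the filter only through the controls. The 8 erythroid markers summed to 118 to 247 and 51.8 to 180, lower in 3 of 4 mice, with Tfrc at −0.36 and Ermap at −1.53, which are 2 of the 3 that fell with the block. The 8 mast cell and basophil markers summed to 31.1 to 43.9 and 32.0 to 39.5, and Tph1 (−1.37) and Tpsb2 (−1.71) fell, 2 of the 3 that did so with the block. Changes were above 0 for 3 of these 8, among them Mcpt8 at 0.59 and Hdc at 0.25, which did not pass. The 5 measured lymphocyte markers summed to 1.81 to 2.22 and 1.47 to 2.09, lower in 4 of 4 mice, and Pax5, Ebf1, Cd3g and Cd8a were not above background on any array. Lck rose by 0.91 (limma adjusted p 0.0339). The 4 measured stromal and endothelial markers summed to 1.54 to 1.87 and 2.09 to 2.32, with Pdgfrb at 0.69 and Pecam1 at 0.51, both passing with the block, Kdr at −0.53 and Col1a2 at −0.34, which did not pass, and Cdh5 and Col3a1 not above background on any array. In bulk RNA a smaller share of one cell type and less RNA per cell cannot be told apart, and the part of these markers in the values of Cdkn2d, Cdkn2a, Cdkn2b and Cdkn1b was not tested.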

How the data were processed

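Total RNA (400 ng per culture) of 8 cultures was labelled with Cy3 and read on one-colour Agilent arrays with Feature Extraction 10.1, per the submitters' processing notes. The deposited files hold, per the file headers, spot intensity after background subtraction and spatial detrending, without normalization between arrays. Values on the log2 scale, centred per probe, make up the authors' deposited table. Over 9272 bright probes its differences between arrays followed the spot files with r of at least 0.999, and its column medians lay between −0.20 and 0.11.

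The log2 intensity was shifted so that the 75th percentile of non-control spots was 0 on each array. Control spots and 242 non-uniform values were left out (0 of members), and spots of a probe were averaged. A probe was kept where 1 group or both had it well above background on 4 of 4 arrays (22747 of 41174), and the brightest stood for its gene (17302 genes). Of the 41174 probes 24375 were named through RefSeq accessions of GRCm38.p6, a later build than that of the array design, so gene coordinates other than promoter windows are not given. limma 3.58.1 in R 4.3.3 compared the groups (two-sided, Benjamini-Hochberg over all genes), without and with mouse as a block. Same-mouse arrays come from the same animal; with group means removed they correlated with r of 0.439, 0.481, 0.407 and 0.642, higher than with other mice. The number of arrays limits the precision. The procedure was also run on simulated data. The changes simulated were larger than that of any member, and the simulated mouse effect was smaller than the spread of Cdkn2b. That run therefore cannot show whether changes of the members' size would be found.

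Members and lists were chosen with earlier results of these data known. Named genes are all members, Pcgf1, the genes of each pathway list that passed with or without the block (otherwise the 3 smallest p), the 2 smallest p of each marker list (1 such gene is not reported here), and the 2 genes most like each member. Others named were chosen after their values were seen (Ccne2, Cdk4, Cxcr2, Ltf, Meis1, Ly6a, Cx3cr1, Mcpt8, Hdc, Kdr, Col1a2 and genes not above background). Alternatives covered the block, slide, background correction, scaling, the value table, the filter, averaging of probes and leaving out each mouse.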

Additional observations from a re-analysis of the deposited data

Results flagged for a closer look

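Among the named genes, 1 of 78 groups of 4 arrays held a value set apart from its group. Cdkn1b read −3.73 on the control array of mouse 2, while the other 3 control arrays lay between −3.59 and −3.56. The gap took up 0.847 of the group's range, past Dixon's limit for 4 samples. Chance sets about 1 in 20 such groups apart. This array gave the smallest within-mouse difference of Cdkn1b, −0.08, and without mouse 2 its mean change was −0.39.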

How the results depend on the processing

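Of the alternatives run, 16 per result, the changes of Cdkn1b, Cdkn2a, Cdkn2b, Cdkn2c and Cdkn2d kept their direction in all, and the median of the members lay between −0.36 and −0.20. Several of these could not change a direction. A mouse or slide block, no filter and averaging of probes left each member's change as it was. Leaving out a mouse gave the same change with and without the block. It could not reverse Cdkn1b, Cdkn2a, Cdkn2b or Cdkn2d, each lower in 4 of 4 mice. Nor could it reverse Cdkn2c, whose only rise was 0.0071 in mouse 3. With mouse as a replicate block Cdkn2d passed (−0.42, adjusted p 0.0477), so that 1 member passed, and the block changed no other member's call. Leaving out each mouse, with or without the block, the log2 change of Cdkn1a lay between −0.0193 and 0.0662 (−0.0124 without replicate 1, −0.0193 without replicate 3), and the log2 change of Cdkn1c between −0.136 and 0.0928 (−0.136 without replicate 4). With normexp background correction the log2 change of Cdkn1c was −0.0481. Over all genes 132 passed (78.0% higher), 921 with mouse as a block (54.6% higher), 77 with normexp (67.5% higher) and 0 without the filter on dim probes (2199 at an unadjusted p under 0.05). Leaving out replicates 1, 2, 3 and 4 gave 1, 0, 0 and 363 without the block and 284, 0, 306 and 145 with it; by limma at an unadjusted p under 0.05 the counts of 0 were 1000 (without replicate 2), 1089 (without replicate 3) and 2435 (with the block, without replicate 2). The Pcgf1 change lay between −1.38 and −1.09 and missed the threshold in 5 of 16 alternatives, among them no filter on dim probes (adjusted p 0.104) and the block without replicate 2 (0.0896). The cause was not tested. Cdkn1b and Cdkn1c are limited by signal over background. The sizes for Cdkn2a and Cdkn2b also depend on background handling, with −0.31 and −0.32 under normexp against −0.43 and −0.47 in the main fit. Cdkn2d (−0.39 against −0.42) and Cdkn2c (−0.15 against −0.14) moved less.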
